A study of Oryza sativa with 24 samples.

Results

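Gene expression in wild-type rice panicles was compared between the end and the start of the sampled span of pollen development, stage 8 against stage 5. The 6 libraries were chosen by genotype and stage label, out of 24 columns in all, with 3 replicates at each stage. Stage 8 panicles were labelled as maturing their pollen and stage 5 panicles as forming pollen mother cells. Both groups were young panicles of the unedited indica variety IR64, grown in pots in growth chambers, with no treatment named. The series also holds stages 6 and 7 (meiosis of the pollen mother cells and pollen filling) and, at all 4 stages, a triple mutant with tps2, tps3 and tps6 edited, here MT. These genes encode class II trehalose phosphate synthases, and the series title concerns their part in spikelet fertility.

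A rice panicle is the flowering branch, and each of its spikelets holds anthers, a pistil and enclosing hulls. Inside the anther, pollen mother cells divide by meiosis into microspores, which divide again by mitosis and fill with starch to become pollen. The tapetum, the layer that lines the anther, feeds the microspores and supplies wall material before it degenerates. Whole panicles were collected, so each library mixed anther, pistil, hull and branch tissue. Fewer cells of a type and less RNA per cell therefore cannot be told apart in any value below.

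The identifiers of the deposited table are not paired with gene names in the sources used here, so the labelled tissue and stage were not checked against marker genes. Genes are given as groups, by rank, or by 2 identifiers for each direction. Total counts were 12746624, 13087188 and 13060613 at stage 8, and 11562157, 12011796 and 11571939 at stage 5. Libraries correlated across genes at 0.956 to 0.972 within stage 8 and at 0.969 to 0.981 within stage 5, but at 0.732 to 0.774 between the stages (log2 of CPM plus 1, where CPM is the count scaled to the size of the library). The common biological coefficient of variation, the spread between replicates beyond counting error, was 26.2% at stage 8 and 24.4% at stage 5. None of these 6 columns was identical to another. In 3 other pairs of columns, at stages 6 and 7, mutant and wild type held the same value in every row, and these columns were left out wherever stages 6 and 7 are described.

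Most measured genes differed between the ends of the span. Of 21368 genes tested, 6150 rose at stage 8 relative to stage 5 (28.8% of those tested) and 5336 fell (25%), at a Benjamini-Hochberg adjusted p under 0.05 in edgeR's quasi-likelihood test. Together these were 53.8% of the genes. The 3 stage 8 libraries all lay above the 3 stage 5 libraries for 7014 genes (32.8%) and all below them for 6479 (30.3%). The median log2 fold change over all genes tested was 0.0047. The scaling between libraries largely sets this value, so it does not show that rises and falls balance. It was -0.057 with library totals only and 0.057 with RLE scaling.

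The genes that rose changed far more than those that fell. Their median change was 4.07-fold (log2 fold change 2.02), against 2.16-fold (-1.11) for those that fell. Genes beyond 2-fold, tested against that size itself with edgeR's glmTreat, numbered 3470 higher at stage 8 (16.2%) and 1562 lower (7.31%), or 23.5% of genes. Among these the medians were 11.6-fold higher and 4.60-fold lower at stage 8. Where a gene had fewer than 3 counts over its lower group, its fold was taken at a floor of 3 counts over that group and is a lower bound. This concerned 672 genes that rose and 85 that fell.

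The split by size ran in opposite directions for small and large changes. Under 2-fold, 1395 genes rose and 2245 fell. Between 2- and 4-fold, 1646 rose and 2103 fell. From 4- to 8-fold the order turned, with 981 up and 567 down. Between 8- and 32-fold there were 1233 up and 373 down, and beyond 32-fold 895 up and 48 down. Of these last, 456 and 30 genes stood at the floor.

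**Figure D1:**
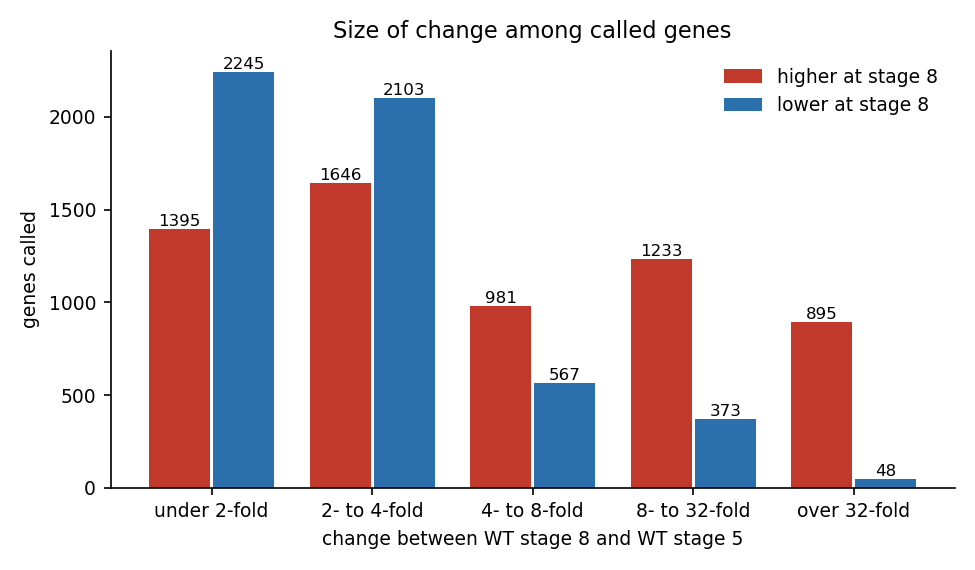
Number of called genes (vertical axis) by size of change between wild-type stage 8 and stage 5 (horizontal axis, bins of fold change), higher at stage 8 in red and lower at stage 8 in blue. Falling genes outnumber rising ones under 4-fold, while beyond 32-fold there are 895 rising and 48 falling genes.

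Among genes of few reads more rose than fell, while in the middle range, 10 to 1000 CPM, more fell. Among 610 genes with a mean under 1 CPM over the 6 libraries, 33.3% rose and 11.3% fell. Among 6701 genes with a mean of 1 to 10 CPM over the 6 libraries, 32.3% rose and 14.3% fell. Among 11691 genes of 10 to 100 CPM, 26.4% rose and 29.7% fell, and among 2336 genes of 100 to 1000 CPM, 29.2% rose and 35.7% fell. Above 1000 CPM, 13 of 30 genes rose and 9 fell. Beyond 2-fold the order turned in the middle range. There 12.5% rose and 7.64% fell at 10 to 100 CPM, and 12.2% and 8.82% at 100 to 1000 CPM. CPM is not divided by gene length, so this order is one of reads and not of transcripts per gene.

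The genes that rose beyond 2-fold took over a large part of the reads. They held 21.7%, 22.7% and 21.8% of all counts in the stage 8 libraries, against 3.10%, 3.53% and 3.26% in the stage 5 libraries. Those that fell beyond 2-fold held 3.81%, 3.74% and 3.39% at stage 8, against 14.3%, 13.3% and 14.3% at stage 5. The sets were chosen on these same libraries, so the shares describe how much of the RNA was involved and are no test. The 9882 genes that were not called held 36.6% ± 0.622 of counts at stage 8 and 38.7% ± 0.741 at stage 5 (SD, n = 3 each).

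Of the 9882 genes not called, 5324 (53.9%) had a 95% interval of the change that lay inside 2-fold in both directions, and 1818 inside 1.5-fold. Genes bounded within 2-fold had a median of 39.4 CPM, and the uncalled genes not so bounded had one of 3.74 CPM. For the second kind the depth and spread did not show whether they changed.

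OsIR64_02g0025330 had the largest gain in reads. It stood at 7513, 8151 and 5311 CPM at stage 8, against 107, 101 and 89.7 CPM at stage 5. The groups did not overlap, and replicate 3 was the lowest stage 8 library. The means were 6992 ± 1490.4 CPM at stage 8 and 99.4 ± 8.93 CPM at stage 5 (SD, n = 3 each), a 70.4-fold difference. On the log2 scale the fitted change was 6.14 with an SE of 0.24 (edgeR adjusted p = 8.5e-09). By mean CPM it ranked 1 at stage 8 and 2351 at stage 5, although in stage 8 replicate 3 the gene of rank 2 had more, 6202 CPM.

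OsIR64_10g0002660 had the largest fitted fold among genes with at least 10 counts over the lower group and 5 CPM in the higher. Its values were 3214, 2789 and 2778 CPM at stage 8, against 0, 1.30 and 0.0864 CPM at stage 5. The stage 5 values stood for 0, 16 and 1 counts, so 1 library held nearly all of them. The fitted log2 change was 12.57 with an SE of 0.69 (edgeR adjusted p = 1.8e-06), and 15.76 without stage 5 replicate 2, so its size depends on that library while its call does not.

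OsIR64_11g0025240 lost the most reads. It had 2676, 1948 and 2909.9 CPM at stage 8, against 6731, 5606 and 5966 CPM at stage 5. The groups did not overlap. By mean CPM it ranked 9 at stage 8, while it led all genes at stage 5. Means were 2511 ± 502 CPM at stage 8 and 6101 ± 574 CPM at stage 5 (SD, n = 3 each), a fitted log2 change of -1.28 with an SE of 0.20 (edgeR adjusted p = 1.9e-04). Tested against a 2-fold minimum it was not called (adjusted p = 0.099).

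OsIR64_07g0003090 had the largest fitted fall under the same limits as above. It had 0, 0 and 0.820 CPM at stage 8, against 14.1, 16.6 and 26.3 CPM at stage 5. All 11 stage 8 counts came from replicate 3. The fitted log2 change was -6.01 with an SE of 0.83 (edgeR adjusted p = 2.1e-04). Without that library stage 8 held no count at all and the fitted value, which then depends on the model's prior count, was -10.84.

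**Figure D2:**
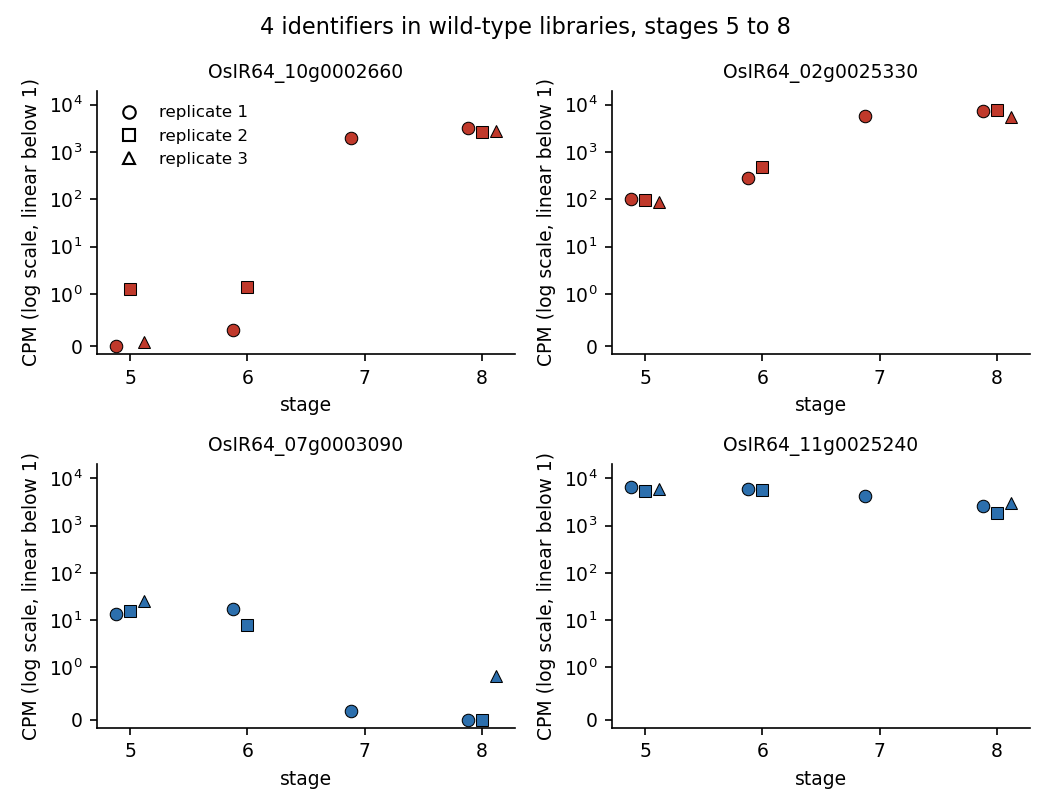
CPM of the 4 named identifiers (vertical axis, log scale, linear below 1 CPM) by stage in wild-type libraries of resolved genotype (horizontal axis), 1 marker shape per replicate. In the stage 7 library OsIR64_10g0002660 stood at 2009.6 CPM, OsIR64_02g0025330 at 5834 CPM and OsIR64_07g0003090 at 0.177 CPM.

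Reads of some genes appeared only at stage 8. No count was found in any stage 5 library, and at least 1 CPM in every stage 8 library, for 429 genes, all of them called. The mirror set, with no count at stage 8 and at least 1 CPM in every stage 5 library, held 53 genes, also all called. Both sets were chosen on the values tested, so these calls follow largely from the choice and are no support. Of all genes tested, 28.8% were called higher and 25% lower at stage 8. With stage 5 replicate 1 left out, which can only keep or raise the number, the mirror set had 86 genes. At a minimum of 5 CPM the numbers were 139 and 3, at 50 CPM they were 23 and 0, and at 500 CPM 3 and 0. These limits apply to whole panicles at this depth, where 3 counts over the 3 libraries correspond to 0.0788 CPM at stage 8 and 0.0835 CPM at stage 5, for counting error alone.

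The stage 8 set was uneven. Its first gene had 2469.7, 2399 and 2197 CPM in the stage 8 libraries, at least 28202-fold higher than the stage 5 floor. Its second had 1690, 2148 and 1340.5 CPM, at least 20668-fold higher. The median gene had 4.26 CPM, and the first 10 genes held 59.1% of the reads of the set. The set as a whole took 1.12% ± 0.0643 of stage 8 counts (SD, n = 3). By contrast, the first gene of the mirror set had 15.5, 5.03 and 11.6 CPM at stage 5, and that set took 0.0165% ± 0.0011 of stage 5 counts (SD, n = 3).

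The leading genes of the 2 stages overlapped in part. Of the 100 genes with the most reads at stage 8, 41 were also among the 100 at stage 5. In the stage 8 list 64 genes rose, 12 fell and 24 were not called, and 44 rose beyond 2-fold. In the stage 5 list 66 fell, 8 rose and 26 were not called, with 27 lower beyond 2-fold. Of the stage 8 list, 7 genes had under 1 CPM at stage 5, whereas no gene of the stage 5 list had under 10 CPM at stage 8. Since ranks came from the values compared, these counts are a description.

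Most of the 10 leading genes at stage 8 were already abundant at stage 5, and a few came from almost nothing. The second had 6054 ± 202 CPM at stage 8 and 3702 ± 750 CPM at stage 5 (SD, n = 3 each), with an edgeR adjusted p = 0.007. The third, at 5490 ± 842 CPM against 4109.6 ± 602 CPM, was not called (edgeR adjusted p = 0.081). The fourth had 5002, 4969 and 4375 CPM at stage 8, and 0.250, 0.244 and 0.259 CPM at stage 5, from 9 counts in all, and its groups lay furthest apart in this list (log2 fold change 14.16, SE 0.30, edgeR adjusted p = 1.5e-10).

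More genes were detected at stage 8. With every library thinned to 11562157 counts, 21030.0, 20755 and 21125 genes reached 1 CPM at stage 8, against 19061, 19139 and 19127 at stage 5. Genes with at least 1 count numbered 25075, 24336 and 25046 at stage 8, against 23217, 23538 and 23134 at stage 5. The groups did not overlap in either measure. The exact permutation test over the 6 libraries gave p = 0.1 for both (two-sided, 3 against 3), the smallest value this design allows, and p = 0.175 after adjustment over 7 measures.

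The share of reads in the leading genes was measured at several depths of the list. The most abundant gene of a library held 0.736%, 0.753% and 0.637% of counts at stage 8, against 0.698%, 0.575% and 0.597% at stage 5, and the groups overlapped (exact permutation p = 0.2). The 10 leading genes of a library held 4.11% ± 0.164 of counts at stage 8 and 3.62% ± 0.254 at stage 5 (SD, n = 3 each; exact permutation p = 0.1, adjusted 0.175). The 100 leading genes held 13.2%, 13.5% and 12.24% at stage 8, against 11.9%, 11.3% and 12.18% at stage 5, and the groups just did not overlap (exact permutation p = 0.1, adjusted 0.175). The 1000 leading genes held 36.9% ± 1.42 at stage 8 and 36.8% ± 0.972 at stage 5. The upper 50% of counts came from 1981, 1838 and 2083 genes at stage 8, against 1983, 2004 and 1847 genes at stage 5. For the 1000 leading genes and for this number of genes the groups overlapped (exact permutation p = 1).

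Wild-type libraries of stages 6 and 7 showed where in the span the levels moved. They comprised 2 libraries at stage 6 and 1 at stage 7, so the values carry no test. Genes higher at stage 8 beyond 2-fold had a median log2(CPM + 0.5) of 0.67 at stage 5, 1.67 at stage 6, 3.83 at stage 7 and 4.19 at stage 8. Genes lower at stage 8 beyond 2-fold had medians of 5.26, 4.77, 3.36 and 3.08 at the same stages. Both sets thus moved most between the stage 6 and stage 7 libraries.

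Expressed as the position of each gene between its stage 5 level (0%) and its stage 8 level (100%), the rising set had a median of 21.1% at stage 6 and 88.4% at stage 7. The falling set had 22.2% at stage 6 and 85.5% at stage 7. Of the 3470 rising genes, 532 (15.3%) were past the midpoint at stage 6, 2440 (70.3%) first at stage 7, and 498 (14.4%) not yet at stage 7. Of the 1562 falling genes these numbers were 125 (8.00%), 1201 (76.9%) and 236 (15.1%). The stage 7 library lay beyond the stage 8 mean for 1154 rising and 440 falling genes, but by more than 1 log2 unit for 155 and 33. With the columns that stand under both genotypes included, the stage 7 medians were 70.3% and 71.2%. Genes not yet past the midpoint at stage 7 then numbered 975 (28.1%) of the rising and 422 (27.0%) of the falling set. Those beyond the stage 8 mean at stage 7 numbered 611 and 165.

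**Figure D3:**
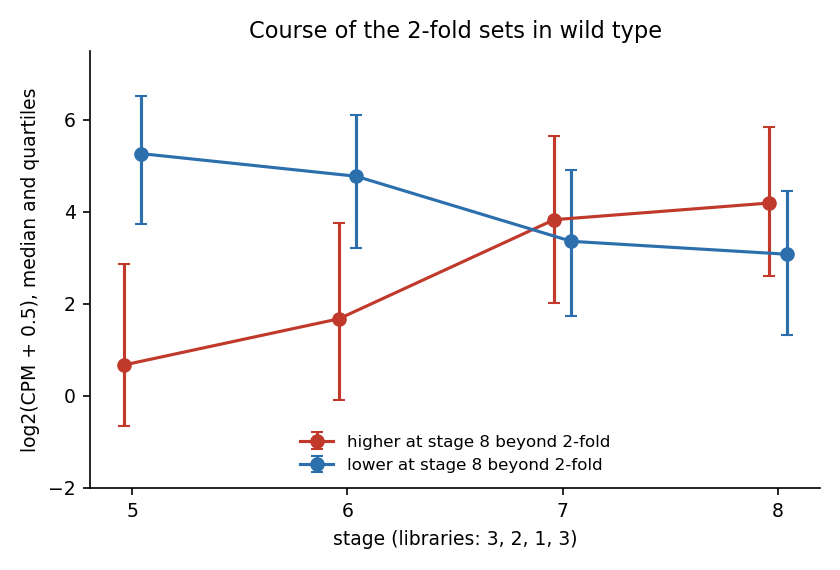
Median (points) and quartiles (bars) over genes of log2(CPM + 0.5), vertical axis, for the sets higher (red) and lower (blue) at stage 8 beyond 2-fold, by stage in wild type, horizontal axis, with 3, 2, 1 and 3 libraries. The red medians climb from 0.67 at stage 5 to 4.19 at stage 8, with the widest step between stages 6 and 7. The blue medians fall by the same order of stages, to 3.08.

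Of the 4 named identifiers, 3 moved most at the same step. OsIR64_10g0002660 had 0.313 and 1.41 CPM in the stage 6 libraries and 2009.6 CPM in the stage 7 library. OsIR64_02g0025330 had 278 and 473 CPM at stage 6 and 5834 CPM at stage 7. OsIR64_07g0003090 had 17.1 and 7.74 CPM at stage 6 and 0.177 CPM at stage 7, whereas OsIR64_11g0025240, at 5999 and 5715 CPM at stage 6 and 4181 CPM at stage 7, was still above every stage 8 library at stage 7.

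Genes seen only at one end followed the same order. Of the 429 genes with reads only at stage 8 among the 2 ends, 206 had no count at stage 6 and 21 reached 1 CPM in both stage 6 libraries. At stage 7, 53 had no count and 252 (58.7%) reached 1 CPM. Together they took 0.0388% and 0.0361% of counts in the stage 6 libraries, 0.600% at stage 7 and 1.07% to 1.19% at stage 8. Of the 53 genes of the mirror set, 0 were without a count at stage 6, and 41 had no count in the stage 7 library.

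The tps2/tps3/tps6 mutant gave the same contrast in 6 libraries that share none with the wild type. MT stage 8 replicate 3 stood apart, correlating at 0.916 and 0.885 with replicates 1 and 2, which correlated at 0.933 with each other. The common biological coefficient of variation was 46.1% in MT stage 8 and 11.5% in MT stage 5. Of the 3470 rising and 1562 falling wild-type genes beyond 2-fold, 3028 and 1523 passed the count filter in the mutant libraries. There 3027 and 1515 of them had the same sign. A rising gene with almost no reads at stage 5 passes that filter only if it has reads at MT stage 8. For such genes, and for falling genes with almost no reads at stage 8, the sign follows from the filter and is no support.

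Among the genes tested in both genotypes, the median log2 fold change of the rising set was 3.24 in wild type and 3.29 in MT. That of the falling set was -2.17 in wild type and -1.92 in MT. The wild-type values chose the sets, which by itself favours larger values there. The 3470 rising genes held 20.9%, 19.6% and 19.2% of counts in the MT stage 8 libraries, against 3.16%, 3.00% and 2.93% in the MT stage 5 libraries. For the 1562 falling genes the shares were 3.77%, 4.47% and 4.12% at MT stage 8, against 13.9%, 14.3% and 14.7% at MT stage 5.

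**Figure D4:**
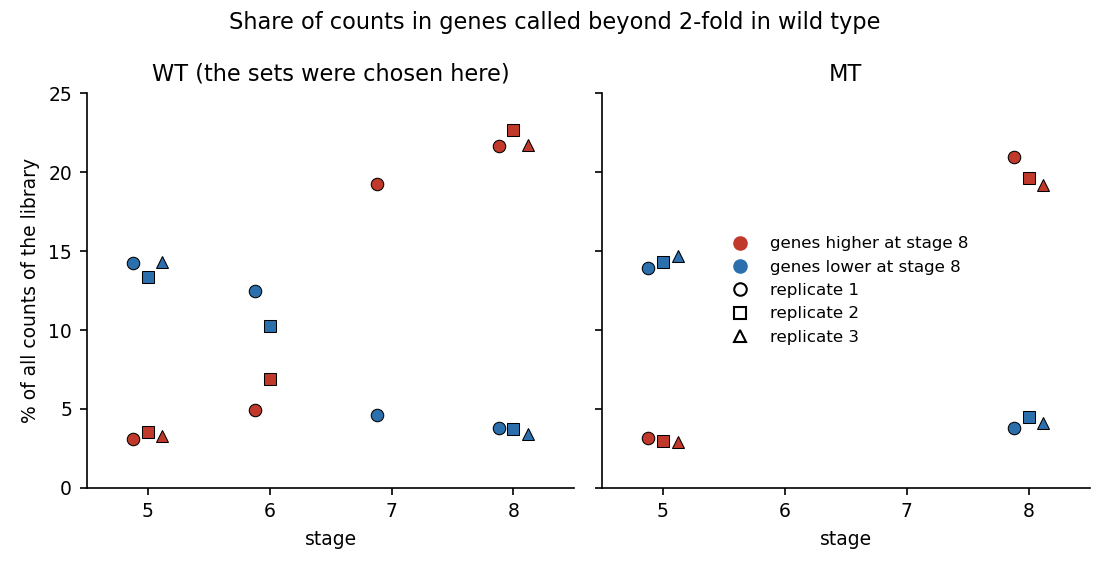
Share of all counts of a library (vertical axis, percent) held by genes called higher (red) or lower (blue) at stage 8 beyond 2-fold in wild type, by stage (horizontal axis), for wild type at left and MT at right, with 1 marker per library. At stage 8 the red genes hold 21.7% to 22.7% in wild type, where they were chosen, and 19.2% to 20.9% in MT.

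Fitted alone, the mutant contrast called 5106 genes higher and 3938 lower at stage 8 (24.4% and 18.8% of 20927 tested). Without MT stage 5 replicates 2 or 3 the total was 5925 or 5852 instead of 9044, and the lower genes numbered 2454 or 2420; without MT stage 5 replicate 1 they numbered 2614. Of the 6150 genes that rose in wild type, 5614 were tested in MT and 4198 also rose there. The 4198 genes are 68.3% of the wild-type list, untested genes included, and 82.2% of the mutant one. Of the 5336 that fell, 5281 were tested in MT and 3349 fell there as well, 62.8% and 85.0% of the lists. Genes called in opposite directions numbered 0 of the rising and 2 of the falling genes.

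A direct test of whether the change from stage 5 to stage 8 differed between wild type and MT called 0 of 22883 genes in edgeR. The unadjusted p was below 0.05 for 1464 of them (6.40%). DESeq2 called 3. Without MT stage 8 replicate 3, edgeR called 429 genes, 299 with a more positive change in wild type and 130 with a more negative one, so this result depends on that library. In the other 11 fits that left out 1 library the count was 0. No gene is therefore named as particular to wild type, and the count of 0 does not show that the changes were equal.

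**Figure D5:**
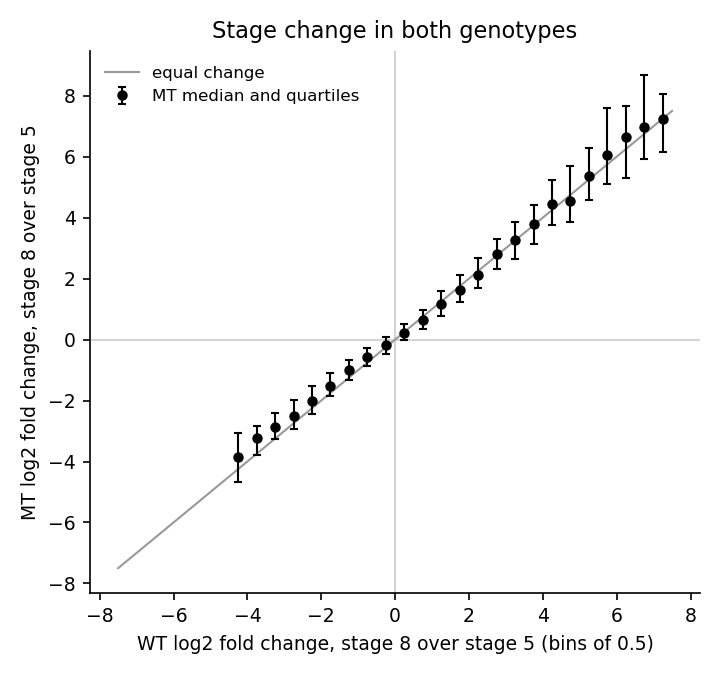
Median and quartiles of the mutant log2 fold change, stage 8 over stage 5 (vertical axis), for genes grouped in bins of 0.5 of the wild-type log2 fold change (horizontal axis); the grey line marks equal change, and bins with under 20 genes and the open end bins are left out. The medians lie close to the line on the rising side and slightly above it on the falling side.

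The 4 named identifiers went the same way in the mutant. OsIR64_02g0025330 had 7251, 15223 and 5569 CPM at MT stage 8, against 119, 86.8 and 83.5 CPM at MT stage 5 (log2 fold change 6.65, edgeR adjusted p = 6.2e-05). OsIR64_10g0002660 had 2445, 1313 and 1499 CPM at MT stage 8, against 0.575, 0 and 0.611 CPM at MT stage 5. Every MT stage 8 library was below the wild-type ones, yet the test of the difference in change gave an edgeR adjusted p = 0.98.

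OsIR64_11g0025240 had 3874, 2400.3 and 3162 CPM at MT stage 8, against 7785, 7577 and 8068 CPM at MT stage 5, and its log2 fold change was -1.28 in both genotypes. OsIR64_07g0003090 had 0, 0 and 2.86 CPM at MT stage 8, against 16.3, 9.25 and 13.5 CPM at MT stage 5. As in wild type, replicate 3 was the 1 stage 8 library with reads (log2 fold change -3.74, SE 1.27, edgeR adjusted p = 0.043).

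Sets seen at one end of the wild-type span were looked up in the mutant as well. Of the 429 genes with reads only at stage 8, 264 (61.5%) reached 1 CPM in all 3 MT stage 8 libraries, and 324 (75.5%) had no count in any MT stage 5 library. Their share of counts was 2.12%, 2.01% and 0.844% in MT stage 8 replicates 1, 2 and 3, and at most 0.00111% at MT stage 5. The replicates of MT stage 8 thus bracketed the wild-type range of 1.07% to 1.19%.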

How the data were processed

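The deposited values are whole-number counts per gene, made by the authors, per the series design text, by trimming read pairs, mapping them to IR64 with STAR and counting reads over high-confidence gene models with HTSeq-count. Per the submitters' processing notes, Trimmomatic 0.39 and kallisto are listed with no role. Neither the strand setting nor the handling of near-identical genes is given in the sources used here, so counts of paralogs and overlapping genes are uncertain. The table has 36099 identifiers, and 0 matched the 39387 genes of the reference table (assembly ASM3414082v1), so the gene lists prepared gave no values. Columns of mutant and wild type were identical in 3 of 276 pairs.

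The 6 wild-type libraries of stages 8 and 5 were fitted alone in edgeR 4.0.16 (R 4.3.3; TMM, filterByExpr, estimateDisp, robust glmQLFit), which kept 21368 genes and left 4 residual degrees of freedom. The difference between genotypes was tested as an interaction over 12 libraries. CPM values are scaled to TMM library sizes. Standard errors were derived from the fold change and its F statistic. The procedure was also run on simulated counts in which far fewer genes changed than were called here. That run therefore does not show how it performs on changes as many and as large as these. Replicates were treated as independent, and p-values measure the spread between them. Identifiers named had the largest fold or the largest CPM difference each way among called genes without overlap. The members and lists were chosen with earlier results of these data known. Alternatives were other scalings, filters, DESeq2 1.42.0, other sets of libraries, a replicate block, thinning, stricter thresholds and leaving out each library.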

Additional observations from a re-analysis of the deposited data

How the results depend on the processing

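The wild-type counts of called genes stayed within 1.5 times of 11486 under RLE or upper quartile scaling, scaling to library totals only, both other filters, DESeq2, both larger fits, thinning and an adjusted p under 0.01, and no gene called in the reported fit was called the other way in any of them. The split between directions did depend on the setting. There were 5816 higher and 5780 lower with library totals only, 6399 and 4981 with RLE, and 7110 and 5143 in DESeq2. A 2-fold minimum gave 5032 genes, 3470 higher and 1562 lower. Beyond 2-fold the split was 3344 and 1711 with library totals only, and 3574 and 1444 with RLE. Leaving out each library gave 10125 to 11270 genes, 5474 to 6202 higher and 4584 to 5292 lower, and 4571 to 5195 beyond 2-fold, 3222 to 3679 higher and 1295 to 1655 lower. Genes with reads only at stage 8 numbered 494 to 554 and only at stage 5 numbered 61 to 86 in such settings, which were chosen after seeing the data. Leaving out a library loosens the conditions of these sets, so their numbers could only stay or rise. OsIR64_11g0025240 was not called with a 2-fold minimum (log2 fold change -1.28). With the replicate number as a block 10556 genes were called, 10413 of them shared. Deviations of same-numbered samples from their stage means correlated at 0.13, -0.028 and -0.15, and not every sample correlated best with its own number. With 3 libraries at each stage these values cannot show whether the numbers pair the samples.

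In the mutant, leaving out each library gave 5852 to 10796 called genes, 3432 to 6047 higher and 2420 to 4938 lower. The difference between genotypes called 3 genes in DESeq2, 0 with a replicate block, and 0 to 429 when 1 library was left out; the cause was not tested. At 5 CPM instead of 1, stage 8 had 997 more genes than stage 5. Left-out libraries gave 1783.5 to 1968.5 more genes at 1 CPM, 1395 to 1764 more at 1 count, 0.359 to 0.608 points more in the 10 leading genes, 0.962 to 1.58 points in the 100, -0.648 to 0.769 points in the 1000, and -35.2 to 87.3 genes for the upper 50% of counts. With all 12 wild-type columns the stage 7 medians were 70.3% and 71.2%, where shared libraries enter by construction. Depth limits genes of few reads most: uncalled genes not bounded within 2-fold had a median of 3.74 CPM.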

Other observations

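Changes beyond 2-fold were found at similar rates on all 12 chromosomes, taken from the chromosome field of the identifiers. The share of tested genes that rose at stage 8 ranged from 13.6% on chromosome 12 to 17.6% on chromosome 4, and the share that fell from 6.06% on chromosome 8 to 9.31% on chromosome 12. Chromosome 12 also had the lowest median log2 fold change, -0.11, against 0.11 on chromosome 10. These differences were not tested.

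Successive identifiers of the table were compared pairwise, with no test. Where a gene rose beyond 2-fold and the next identifier was tested as well, the next also rose in 455 of 2216 cases (20.5%), whereas 15.7% of all next identifiers rose. For falling genes the next fell in 103 of 1068 cases (9.64%), against 7.26% overall. After a rising gene the next fell in 152 cases (6.86%, against 7.26% overall). After a falling gene the next rose in 143 cases (13.4%, against 15.7% overall). A rise was thus more common than a fall after a falling gene, as it was among all next identifiers. Reads shared between near-identical neighbours may enter such pairs, which was not tested. There was 1 run of 5 successive rising identifiers, on chromosome 2. All 5 genes had no count at stage 5, and their stage 8 means ranged from 1.58 to 8.31 CPM.

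A comparison of the ends misses genes that peak between them. Of the 9882 genes not called, 20 stood over 4-fold above both ends in the stage 7 library and 26 in the mean of the stage 6 libraries, while 8 stood over 4-fold below both ends at stage 7 and 0 at stage 6.

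Among 11842 genes of at least 10 CPM at both ends, stage 8 replicate 3 was the lowest of its group for 5348, replicate 2 for 3725 and replicate 1 for 2769. At stage 5 the replicates were lowest for 3837 to 4090.0 genes.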
